A study of Mus musculus with 12 samples.

Results

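Wild-type ETV6 was compared with a ZsGreen vector in 6 of the 12 libraries of the series, 3 libraries a side, chosen by their labels alone, and every gene of the count table was a candidate. Of 56748 annotated genes, 30009 had no count in any library and 14794 passed the filter on low counts and were tested. The cells were Ba/F3, an established mouse line that its labels call pro-B cells and that normally needs interleukin-3 (IL-3) to grow. All 4 groups of the series carried NRAS G12D, an activated form of a RAS protein. The control group carried the ZsGreen fluorescent protein alone, the ETV6 WT group carried wild-type ETV6 with ZsGreen behind an internal ribosome entry site (IRES), and the remaining groups carried ETV6 P214L or ETV6 I209S P214L in the same form. On day 0 cells of every group were sorted into IL-3-free medium, then given fresh medium on day 2 and harvested on day 3, so the controls were deprived of IL-3 too. The series asks whether a second change, I209S, which breaks a nuclear export signal made by P214L, brings samples back towards wild type, and the present comparison measures what wild type itself does. Nothing in the labels tells whether the libraries within a group were grown as separate cultures, so the p-values below measure the spread between these libraries, which may be technical.

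ETV6 belongs to the ETS family of transcription factors, which bind DNA at sites built around the bases GGAA. It is known as a repressor: its pointed domain lets the protein form polymers, and its central part recruits co-repressors and histone deacetylases. In blood it is needed for the upkeep of stem cells and for platelet production, and inherited variants that impair it cause low platelet counts and a risk of leukaemia. NRAS acts downstream of growth factor receptors and drives the MAPK and PI3K cascades, which is why an activated form can let a cytokine-dependent line grow without its cytokine.

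The 6 libraries held 15156449 to 18607595 counted reads. Pearson correlations of log2 CPM (reads scaled to a fixed library total) were 0.978 to 0.983 between ZsGreen libraries, 0.984 to 0.991 between ETV6 WT libraries and 0.960 to 0.967 across the groups. On the second principal component ZsGreen 1 (70.7) was remote from the rest. ETV6 WT 1 (22.4, against -1.54 and -5.09) and I209S P214L 1 (21.2, against -6.94 and -7.63) also stood above their group mates. P214L 1 did not (-28.5, against -21.2 and -26.1). The 18S rRNA gene held 2.92%, 3.73% and 4.89% of the reads in the ZsGreen libraries and 1.58%, 3.64% and 3.58% in the ETV6 WT libraries. More genes had at least 1 read in the ETV6 WT libraries: with the 18S rRNA gene left out and every library thinned to 13629134 reads, 15639, 17432 and 17050 genes were expected in the ZsGreen libraries and 19497, 20041 and 19082 in the ETV6 WT libraries. The ETV6 P214L libraries reached 19200 to 19825 at the same depth. The I209S P214L libraries reached 19955, 17509 and 19765, so a library can differ from its own group by a like amount. The genes that failed the filter on low counts held only 0.0806% to 0.114% of the reads of each of the 6 libraries. The part of detection in the calls of weakly expressed genes was not tested. Of 14 pro-B markers, 7 had no read in the 6 libraries (among them Igll1, Ebf1, Rag1, Blnk, Il7r and Dntt), and the 14 summed to 8.42 to 15.97 CPM in ZsGreen and 8.36 to 9.76 CPM in ETV6 WT, so the pro-B label is not borne out by these markers. The 9 mast cell and basophil markers summed to 1770 to 1852 CPM in ZsGreen and 2373 to 3013 CPM in ETV6 WT, with Fcer1a and Tpsb2 at 0. Gata2 alone made up most of that sum, at 1826 ± 47.7 and 2571 ± 371 CPM, and of the other members Cma1 was called higher and Hdc and Ms4a2 lower. The sums were scaled to library totals alone, so they are on a slightly different scale from the Gata2 values. The 8 erythroid markers summed to 413 to 429 and 447 to 546 CPM, the 7 megakaryocyte markers to 1021 to 1081 and 770 to 949 CPM, and the 10 neutrophil and monocyte markers to 32.7 to 41.2 and 5.43 to 5.65 CPM, in ZsGreen and ETV6 WT. Of the 8 erythroid markers 4 were called higher and 2 lower. Tfrc, which made up most of their ZsGreen sum, was among the lower. T cell markers summed to at most 3.11 CPM and fibroblast markers to at most 0.503 CPM in any of the 6 libraries. The part of these marker differences in the results that follow was not tested.

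Etv6 (chromosome 6, 134012663 to 134247121, plus strand, mm39) was at 87.4, 77.9 and 79.8 CPM in the ZsGreen libraries and 122, 103 and 102 CPM in the ETV6 WT libraries. Every ETV6 WT library lay above every ZsGreen library. The gene was 1.33-fold higher with ETV6 WT (log2 fold change 0.41, SE 0.09, adjusted p = 0.00164), by edgeR's quasi-likelihood test with Benjamini-Hochberg adjustment over all 14794 genes, which is the test behind every adjusted p below. The labels do not give the species of the ETV6 coding sequence in the construct, and a count per mouse gene does not separate a construct from the cells' own gene. Nras was at 73.2, 81.9 and 78.7 CPM in the ZsGreen libraries and 76.00, 76.6 and 76.8 CPM in the ETV6 WT libraries, and the groups overlapped (log2 fold change -0.03, adjusted p = 0.823).

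At an adjusted p under 0.05, 5580 of the 14794 genes (37.7%) changed with wild-type ETV6, 2882 higher (19.5%) and 2698 lower (18.2%). Most of these changes were small. The median called change was 1.55-fold among the higher genes and 1.45-fold among the lower, and 2831 called genes (50.7%) changed by less than 1.5-fold. Between 1.25 and 1.5-fold the lower genes were the more numerous, 1085 against 915, while between 2 and 4-fold the higher genes were, 508 against 252. Beyond 8-fold there were 162 higher and 85 lower genes. These include 64 higher and 11 lower genes with no read in any library of the other group, whose fitted fold change depends on the small count that the fit adds and is no measure of size. A change of at least 2-fold was called for 1194 genes (8.07%), 801 higher and 393 lower. When the test asked whether the change exceeded 1.5-fold (edgeR's glmTreat), 1158 genes (7.83%) passed, 729 higher and 429 lower. The libraries of the groups did not overlap for 6837 tested genes (46.2%). Without ZsGreen 1, the library that stood furthest apart on the second principal component, 5265 genes were called and 4834 of the 5580 kept their call.

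**Figure D1:**
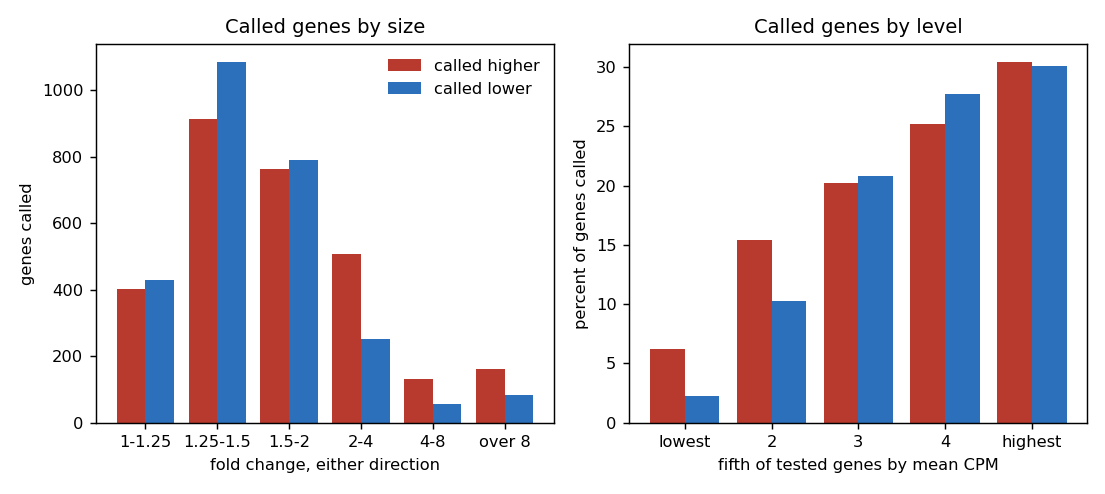
Left, the number of genes called higher or lower in ETV6 WT by the size of the change; right, the percent called higher or lower in 5 equal classes of the tested genes by mean CPM over all 12 libraries. Lower genes are the more numerous between 1.25 and 1.5-fold (1085 against 915) and higher genes from 2-fold up, and the percents rise from the lowest class to the highest.

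How often a gene was called followed how well it was measured. Among the lowest 20% of the genes by level, with mean CPM from 0.212 to 1.501, 183 were called higher and 68 lower (8.48%), against 900 higher and 889 lower (60.5%) among the highest 20%, from 79.9 CPM. The median standard error of a log2 fold change was 0.87 in the lowest and 0.08 in the highest of these classes, so a small change in a weakly expressed gene was not detectable at this depth. The count of higher genes in the lowest class was 114 without ETV6 WT 2, and 60 when the 6 libraries were fitted alone. Of 11312 protein-coding genes tested, 2553 were higher and 2525 lower. Long noncoding RNAs did not split evenly: of 1746 tested, 230 were called higher and 73 lower, and their median log2 fold change was 0.30 against 0.00 for protein-coding genes and 0.03 for all genes. Their counts were 166 and 63 without ETV6 WT 2, and 153 and 62 with the 6 libraries alone. Unprocessed and transcribed unprocessed pseudogenes had like medians, 0.29 and 0.28, while processed pseudogenes had 0.04. The lowest 20% of the genes by level had a median of 0.22, and the part of level in the split of long noncoding RNAs was not tested. The genes called higher held 18.6% to 18.7% of the reads in the ZsGreen libraries and 28.8% to 30.0% in the ETV6 WT libraries, and the genes called lower 36.9% to 38.6% and 27.5% to 27.8%.

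**Figure D2:**
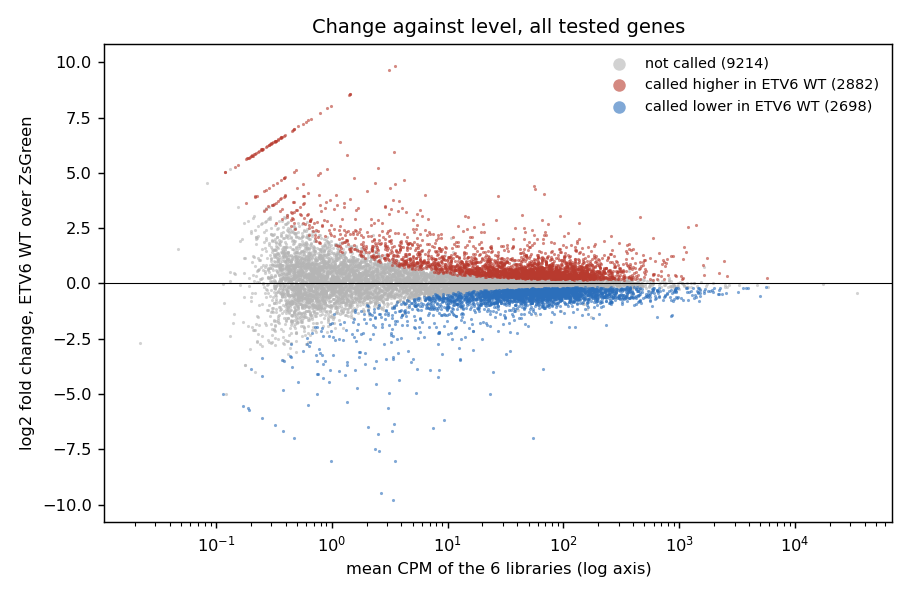
Each point is a tested gene, placed by its mean CPM over the 6 libraries (log axis) and by its log2 fold change of ETV6 WT over ZsGreen; colours mark the 2882 genes called higher, the 2698 called lower and those not called. Called changes under 1.5-fold lie at higher levels, and the straight lines of points at the upper left are genes with no read in the ZsGreen libraries, whose fitted values are not measures of size.

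Few genes could be shown to be steady. For 276 genes (1.87% of those tested) the 95% interval of the log2 fold change lay within -0.2 to 0.2. The most abundant was Eef1a1, the elongation factor that brings tRNAs to the ribosome, at 18096, 17459.6 and 16843 CPM in the ZsGreen libraries and 17026, 17121 and 17606 CPM in the ETV6 WT libraries. Its log2 fold change was -0.02 with an interval of -0.11 to 0.07. The next 7 by level were Tmsb4x (an actin-binding peptide), Rps9 and Fau (ribosomal proteins), Actg1 (cytoplasmic actin), Fth1 (the ferritin heavy chain), Nedd4 (a ubiquitin ligase) and Eif4g2 (a translation initiation factor). Their log2 fold changes ran from -0.07 for Tmsb4x to 0.04 for Eif4g2. Fth1 was at 1364, 1346 and 1282 CPM in the ZsGreen libraries and 1389.8, 1278 and 1347 CPM in the ETV6 WT libraries, and the groups overlapped.

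Nearly every promoter held the ETS core GGAA. RefSeq promoters (GRCm38.p6, 250 bases before to 50 after the start) were matched by symbol to the 7245 tested protein-coding genes with exactly 1 promoter in the table, and on either strand GGAA stood in 95.9% of them and in 96.0% of all 32851 promoters of the table. A longer ETS site, CCGGAAGT, which contains GGAA, stood in 9.54% of the 7245, in 7.60% of the 1565 whose gene was called higher, in 11.5% of the 1699 called lower and in 9.47% of the 3981 not called. Among changes of at least 2-fold it was rarer in both directions, in 2.89% of 346 higher and 1.97% of 203 lower genes. Over all promoters of the table it stood in 3.89%. The AP-1 site TGACTCA stood in 8.38% of the promoters of genes at least 2-fold higher, 3.94% of those at least 2-fold lower, 3.46% of the 7245 and 5.20% of all promoters. The median GC content was 59.5% and 55.3% in these higher and lower sets and 60.7% in the 7245, and its part in the shares was not tested. The E-box CACGTG, which MYC and the lysosomal regulator TFEB bind, stood in 10.1% of the promoters of higher genes, 11.1% of those of lower genes, 9.95% of the 7245 and 7.15% of all. Among changes of at least 2-fold it stood in 7.2% of the higher and 6.9% of the lower genes, both under the share of the 7245. These shares are a description, and a match is not a site that was shown to be bound. The promoters below are examples of each class among genes named in the text, shown for the 250 bases before the start, 5′ to 3′ on the gene's own strand.

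Promoters holding CCGGAAGT (capitals, either strand) are given for Rpsa, chr9:120127516-120127765, plus strand, Mcm10, chr2:5012792-5013041, minus strand, Mrpl18, chr17:12916092-12916341, minus strand, and Coro1c, chr5:113908707-113908956, minus strand. The first 3 genes were called lower and Coro1c was called higher, so these bases stand before genes of both directions.
Rpsa: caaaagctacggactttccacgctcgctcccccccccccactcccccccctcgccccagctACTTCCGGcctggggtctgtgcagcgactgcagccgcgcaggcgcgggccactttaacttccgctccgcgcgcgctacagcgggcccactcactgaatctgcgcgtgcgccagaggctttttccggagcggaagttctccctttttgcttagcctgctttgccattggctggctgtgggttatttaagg
Mcm10: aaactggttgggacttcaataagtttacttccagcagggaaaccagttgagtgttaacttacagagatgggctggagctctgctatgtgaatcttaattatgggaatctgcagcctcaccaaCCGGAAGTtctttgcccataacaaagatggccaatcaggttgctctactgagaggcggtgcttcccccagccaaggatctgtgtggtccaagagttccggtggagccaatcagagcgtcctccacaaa
Mrpl18: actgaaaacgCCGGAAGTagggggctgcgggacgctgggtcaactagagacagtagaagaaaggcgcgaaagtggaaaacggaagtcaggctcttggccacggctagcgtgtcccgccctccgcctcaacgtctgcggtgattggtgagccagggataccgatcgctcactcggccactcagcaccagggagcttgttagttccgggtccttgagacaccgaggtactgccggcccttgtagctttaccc
Coro1c: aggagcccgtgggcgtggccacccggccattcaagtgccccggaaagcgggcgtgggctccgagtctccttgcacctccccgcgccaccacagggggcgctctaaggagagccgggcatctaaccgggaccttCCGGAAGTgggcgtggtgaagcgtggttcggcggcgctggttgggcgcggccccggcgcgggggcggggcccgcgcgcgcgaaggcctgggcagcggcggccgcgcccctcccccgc

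Promoters of genes called higher that hold TGACTCA (capitals, either strand) are given for C3ar1, chr6:122856158-122856407, minus strand, and Tnfsf14, chr17:57194182-57194431, minus strand.
C3ar1: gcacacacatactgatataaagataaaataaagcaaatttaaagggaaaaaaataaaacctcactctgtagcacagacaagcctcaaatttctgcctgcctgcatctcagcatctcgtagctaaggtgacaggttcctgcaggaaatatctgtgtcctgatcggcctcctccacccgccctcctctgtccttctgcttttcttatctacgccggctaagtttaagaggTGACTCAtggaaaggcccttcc
Tnfsf14: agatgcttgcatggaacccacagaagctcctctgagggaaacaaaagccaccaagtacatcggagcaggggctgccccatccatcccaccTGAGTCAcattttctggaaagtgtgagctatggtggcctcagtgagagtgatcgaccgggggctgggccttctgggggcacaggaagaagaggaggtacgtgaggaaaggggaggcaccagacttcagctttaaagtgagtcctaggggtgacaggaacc

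Promoters of genes called higher that hold CACGTG (capitals) are given for Atp6v0b, chr4:117887330-117887579, minus strand, which holds it at 2 places, and Nceh1, chr3:27182754-27183003, plus strand.
Atp6v0b: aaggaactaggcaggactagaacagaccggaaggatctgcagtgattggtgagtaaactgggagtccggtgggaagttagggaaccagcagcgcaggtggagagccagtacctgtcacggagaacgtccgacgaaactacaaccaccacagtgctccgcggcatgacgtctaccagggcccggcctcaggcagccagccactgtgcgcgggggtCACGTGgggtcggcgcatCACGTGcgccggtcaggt
Nceh1: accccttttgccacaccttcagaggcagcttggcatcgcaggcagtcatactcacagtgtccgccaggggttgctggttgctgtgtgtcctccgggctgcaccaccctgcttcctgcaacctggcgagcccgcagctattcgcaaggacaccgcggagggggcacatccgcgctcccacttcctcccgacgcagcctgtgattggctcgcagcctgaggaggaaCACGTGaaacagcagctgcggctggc

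The genes were read by function in 35 lists, each given by how many of its tested members were called, beside 19.5% higher and 18.2% lower over all genes. Lists of the machinery that copies DNA, makes RNA and protein and folds or degrades protein held more lower than higher members. The lists of V-ATPase subunits, autophagy, sphingolipids and glycolipids, fatty acid oxidation and lipid handling, and quiescence and CDK inhibitors held more higher than lower ones. Surface receptor, chromatin and lineage factor lists held both. The first genes named from a list were required to have libraries that do not overlap between the groups, so the absence of overlap carries no weight of its own there. Further members given by a log2 fold change alone were picked after their values were seen.

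**Figure D3:**
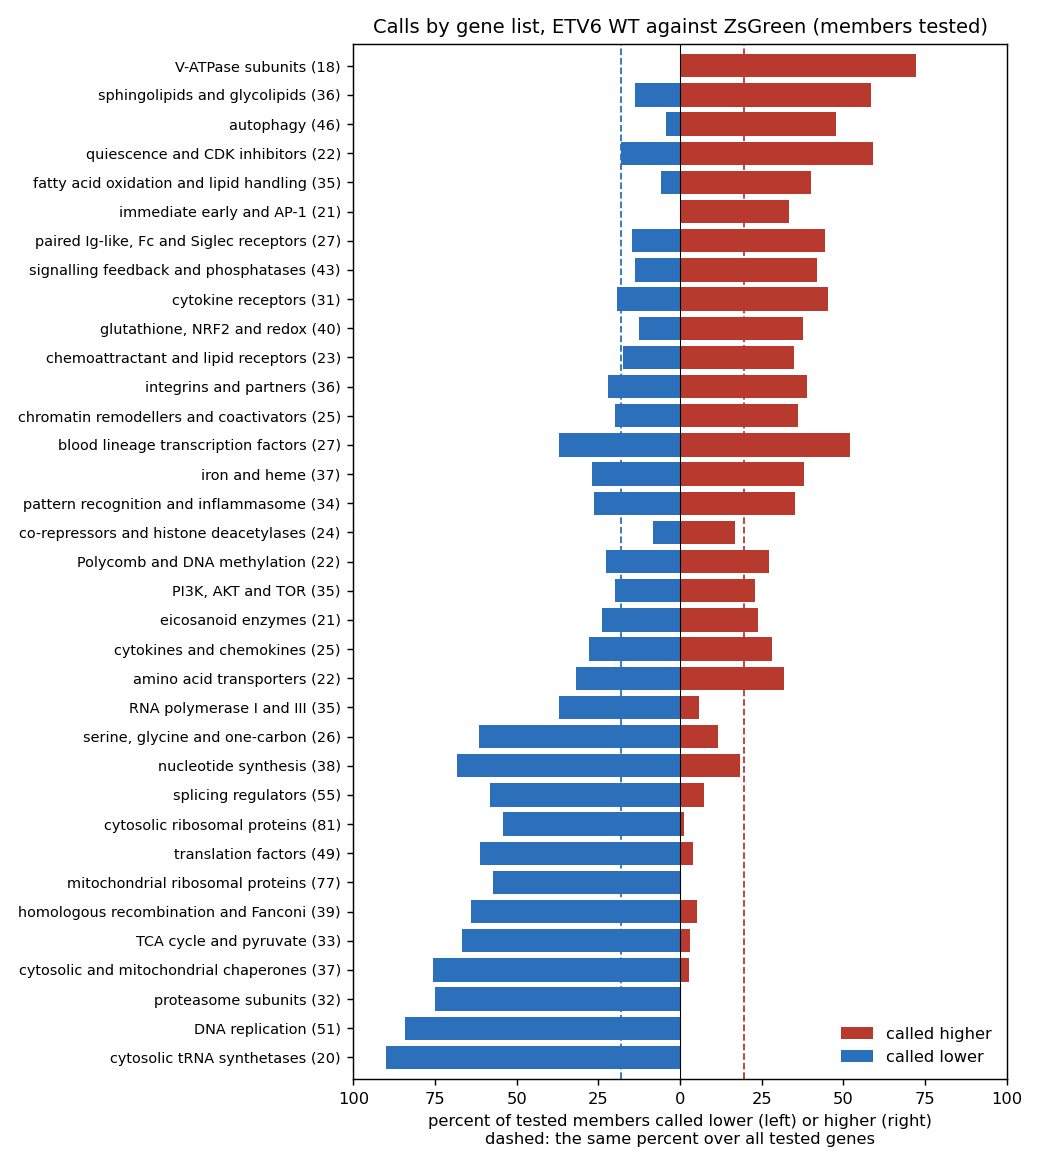
Bars give the percent of tested members called lower (left) or higher (right) in ETV6 WT in each of 35 gene lists, with the number of members tested. Dashed lines give the same percents over all 14794 genes. Over protein-coding genes alone, not drawn, they were 22.3% lower and 22.6% higher. DNA replication (43 of 51 lower) and tRNA synthetases (18 of 20 lower) lie at one end and V-ATPase subunits (13 of 18 higher) at the other.

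DNA replication genes fell together. Of 51 members, all tested, 43 were called lower and 0 higher (1 without ETV6 WT 2), with a median log2 fold change of -0.59. Mcm2, a subunit of the helicase that opens DNA at origins, was at 311, 307 and 332 CPM in the ZsGreen libraries and 201, 179 and 185 CPM in the ETV6 WT libraries. The lowest ZsGreen library was well above the highest ETV6 WT library. Mcm2 was 1.68-fold lower with ETV6 WT (log2 fold change -0.75, SE 0.07, adjusted p = 1.1e-07). Mcm10, a factor that activates that helicase and whose promoter is shown above, fell from 96.6 ± 7.72 to 52.9 ± 3.52 CPM (mean ± SD, n = 3; log2 fold change -0.87), the form in which further genes are given. Prim1, the primase subunit that starts new strands, fell from 67.1 ± 3.100 to 35.7 ± 2.58 CPM (log2 -0.91). Chaf1a, which places histones on new DNA, fell from 103 ± 5.74 to 63.7 ± 3.36 CPM (log2 -0.70). The flap nuclease Fen1 (log2 -1.18), the helicase component Cdc45 (log2 -0.99) and the sliding clamp Pcna (log2 -0.76) were also called lower. The 8 members not called were Rfc2, Orc3, Orc4, Orc5, Pold4, Pole4, Gins3 and Gins4.

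The homologous recombination and Fanconi list, whose proteins repair broken and crosslinked DNA, held 25 lower and 2 higher of 39 tested members (of 40 listed), with a median of -0.47. Rad51ap1, an accessory protein of recombination, was at 48.9, 55.96 and 59.2 CPM in the ZsGreen libraries and 26.4, 27.8 and 21.7 CPM in the ETV6 WT libraries. All control libraries lay well above all ETV6 WT libraries. It was 2.16-fold lower with ETV6 WT (log2 fold change -1.11, SE 0.12, adjusted p = 5.96e-07). Topbp1, a scaffold of the replication checkpoint, fell from 372 ± 8.68 to 235 ± 20.1 CPM (log2 -0.66). The nuclease Exo1 fell from 44.7 ± 5.44 to 22.7 ± 1.21 CPM (log2 -0.98). Fancl, the ubiquitin ligase of the Fanconi complex, fell from 41.98 ± 0.915 to 21.7 ± 3.18 CPM (log2 -0.95). The higher members were Fancg (log2 0.41) and Brca2 (log2 0.26), and their number was 0 without ZsGreen 1 and 1 without ZsGreen 2, ZsGreen 3 or any single ETV6 WT library.

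Nucleotide synthesis held 26 lower and 7 higher of 38 tested members (median -0.47). Ppat, the first committed enzyme of purine synthesis, was at 114, 114 and 111 CPM in the ZsGreen libraries and 62.2, 60.02 and 62.5 CPM in the ETV6 WT libraries. The libraries of each group lay within 4 CPM of each other. It was 1.83-fold lower with ETV6 WT (log2 fold change -0.87, SE 0.07, adjusted p = 2.01e-08). Cad (log2 -0.86) and Umps (log2 -0.81) of pyrimidine synthesis, Tyms (log2 -0.89), which makes thymidylate, and Dut (log2 -0.78), which removes dUTP, also fell. Ada, which deaminates adenosine, fell the most in the list, from 11.9 ± 3.904 to 3.46 ± 0.5298 CPM (log2 -1.78). The 7 higher members included Ctps2 (log2 0.62), a CTP synthase, Tk2 (log2 0.64), the mitochondrial thymidine kinase, Impdh1 (log2 0.39), an enzyme of guanine nucleotide synthesis, and Rrm2b (log2 0.63), a ribonucleotide reductase subunit. Adssl1, the muscle-type adenylosuccinate synthase, was at 97.04, 96.7 and 90.1 CPM in the ZsGreen libraries and 398, 354 and 321 CPM in the ETV6 WT libraries. Its lowest ETV6 WT library was more than 3 times its highest ZsGreen library, and the gene was 3.78-fold higher with ETV6 WT (log2 fold change 1.92, SE 0.09, adjusted p = 5.61e-11). Gda, which deaminates guanine, rose from 53.7 ± 1.37 to 179 ± 10.2 CPM (log2 1.74). Samhd1, which degrades deoxynucleotides, rose from 124 ± 4.66 to 214.4 ± 2.32 CPM (log2 0.79).

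The serine, glycine and one-carbon list held 16 lower and 3 higher of 26 tested members (of 30 listed; median -0.45). Phgdh, the first enzyme of serine synthesis, was at 251, 252 and 212 CPM in the ZsGreen libraries and 109, 82.2 and 81.9 CPM in the ETV6 WT libraries. The highest ETV6 WT library reached about 0.5 times the lowest ZsGreen library. Phgdh was 2.62-fold lower with ETV6 WT (log2 fold change -1.39, SE 0.10, adjusted p = 1.12e-08). Psat1, the next enzyme of the same pathway, was 2.58-fold lower with ETV6 WT (log2 fold change -1.36, SE 0.07, adjusted p = 6.92e-11). Mthfd2, the mitochondrial folate enzyme, fell from 76.2 ± 5.44 to 29.2 ± 2.47 CPM (log2 -1.39). Asparagine synthetase, Asns, fell from 71.2 ± 4.95 to 29.2 ± 1.51 CPM (log2 -1.28). The 3 higher members were Gldc (log2 2.32) and Amt (log2 1.29), both of the glycine cleavage system, and Mat2b (log2 0.30), a regulatory subunit of methionine adenosyltransferase.

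The 20 cytosolic tRNA synthetases, which charge tRNAs with amino acids, were the list with the highest share of lower members: 18 fell, 0 rose, and Qars and Sars were not called (median -0.45). Tars, the threonine enzyme, was at 210.1, 202 and 198 CPM in the ZsGreen libraries and 125, 128 and 115 CPM in the ETV6 WT libraries. The gap between the groups was far wider than the spread within either, and Tars was 1.66-fold lower with ETV6 WT (log2 fold change -0.73, SE 0.07, adjusted p = 1.24e-07). The isoleucine enzyme Iars fell from 168 ± 2.44 to 103 ± 2.51 CPM (log2 -0.70). The glutamate and proline enzyme Eprs fell from 328 ± 3.68 to 212 ± 11.3 CPM (log2 -0.63). The tyrosine enzyme Yars fell from 137 ± 4.94 to 85.99 ± 2.86 CPM (log2 -0.67). Of 49 translation factors tested (of 50), 30 were lower and 2 higher (median -0.28). Eif5a, the hypusinated factor that helps ribosomes past stalls, was at 1123, 1125 and 1113 CPM in the ZsGreen libraries and 732, 631 and 557 CPM in the ETV6 WT libraries. It was 1.75-fold lower with ETV6 WT (log2 fold change -0.81, SE 0.08, adjusted p = 3.01e-07). Eif2s2, a subunit of the factor that delivers the initiator tRNA, fell from 169.7 ± 4.78 to 104 ± 8.895 CPM (log2 -0.70). Eif2b3, a subunit of the exchange factor that recycles it, fell from 36.4 ± 3.38 to 18.2 ± 0.0745 CPM (log2 -0.997). The 2 higher members were Eif4a2 and Eef2, and 1 was called without ZsGreen 2, ZsGreen 3 or both ZsGreen 1 and ETV6 WT 1. Eef2, the factor that moves the ribosome along, was at 5494, 5214 and 5050.4 CPM in the ZsGreen libraries and 7318, 5732 and 5661 CPM in the ETV6 WT libraries (log2 0.25, adjusted p = 0.0274). Its ETV6 WT 1 value stood above the rest, and it was not called without ETV6 WT 1, without ZsGreen 2 or without ZsGreen 3.

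All 81 cytosolic ribosomal protein genes were tested, with 44 lower, 1 higher (Rps28, log2 0.57) and a median of -0.22. Most of these falls were under 1.5-fold. Rpsa, whose promoter is shown above, was at 6403, 5846 and 5583 CPM in the ZsGreen libraries and 4104, 3842 and 4267 CPM in the ETV6 WT libraries. All ETV6 WT libraries lay below all ZsGreen libraries, and the gene was 1.46-fold lower with ETV6 WT (log2 fold change -0.55, SE 0.07, adjusted p = 4.51e-06). Rps6, the ribosomal target of S6 kinase, fell from 2744 ± 128 to 1964 ± 74.8 CPM (log2 -0.48). Rpl6 fell from 2207 ± 68.2 to 1706 ± 15.3 CPM (log2 -0.37). Rps2 (log2 -1.07) and Rpl13a (log2 -0.88) had the largest falls, but ribosomal proteins have many processed copies in the genome, and Rpl13a was counted at only 112 CPM in ZsGreen, so their reads may be split between copies. The single higher member was not called without any one of 5 libraries (0 called), and without ETV6 WT 3 there were 3. Of 77 mitochondrial ribosomal proteins tested (of 78), 44 were lower and 0 higher (median -0.35). Mrpl12, a protein of the large subunit, fell from 102 ± 5.64 to 59.8 ± 10.8 CPM (log2 -0.78). Mrpl18, whose promoter is shown above, fell from 71.97 ± 7.91 to 44.1 ± 4.77 CPM (log2 -0.71). Mrpl19 fell from 55.6 ± 6.205 to 32.5 ± 2.25 CPM (log2 -0.77). Mrpl36 fell from 50.3 ± 1.83 to 31.8 ± 4.34 CPM (log2 -0.66).

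RNA polymerases I and III, which make ribosomal and transfer RNA, held 13 lower and 2 higher of 35 members, all tested (median -0.22). The lower count was 8 without ETV6 WT 3 and the higher count 1 without ETV6 WT 1. Rrn3, which brings polymerase I to its promoter, fell from 77.9 ± 6.62 to 56.3 ± 3.78 CPM (log2 -0.47). Polr1f, a polymerase I subunit, fell from 95.01 ± 9.66 to 67.9 ± 5.86 CPM (log2 -0.49). Gtf3c5, a subunit of a polymerase III factor, fell from 36.2 ± 4.13 to 23.3 ± 2.14 CPM (log2 -0.64). The 2 members that rose were Polr1a, the largest subunit of polymerase I, at 113 ± 9.75 and 147 ± 6.298 CPM (log2 0.38), and Maf1 (log2 0.35), the repressor of polymerase III. Outside the lists, Nolc1 and Nop56, proteins of the nucleolus that serve small nucleolar ribonucleoproteins, were among the 6 lower genes of 1.5 to 2-fold with the smallest adjusted p. Nolc1 was at 256, 267 and 259.8 CPM in the ZsGreen libraries and 138, 128 and 129 CPM in the ETV6 WT libraries. It was 1.98-fold lower with ETV6 WT (log2 fold change -0.99, SE 0.06, adjusted p = 1.12e-09), and Nop56 fell from 320.5 ± 10.1 to 172 ± 5.48 CPM (log2 -0.90).

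Splicing regulators held 32 lower and 4 higher of 55 members, all tested (median -0.31). Srsf3, a serine and arginine rich splicing factor, was at 437, 419 and 419 CPM in the ZsGreen libraries and 264, 265 and 268 CPM in the ETV6 WT libraries. The ETV6 WT values spanned less than 5 CPM, and the gene was 1.599-fold lower with ETV6 WT (log2 fold change -0.68, SE 0.06, adjusted p = 8.41e-08). Snrpd1 and Snrpe, proteins of the Sm ring that surrounds spliceosomal RNAs, fell from 90.5 ± 12.8 to 34.7 ± 5.01 CPM (log2 -1.38) and from 97.1 ± 9.42 to 48.6 ± 10.1 CPM (log2 -0.998). Srsf2 fell from 390.03 ± 21.5 to 259 ± 8.63 CPM (log2 -0.59). The higher count was 2 without ZsGreen 1, ZsGreen 2 or ETV6 WT 2.

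Of 32 proteasome subunits, all tested, 24 fell and 0 rose (median -0.36), in a narrow range from -0.22 (Psmc5) to -0.58 (Psmd1). Psmd1, a subunit of the regulatory cap, was at 232, 229 and 219 CPM in the ZsGreen libraries and 138, 151 and 166 CPM in the ETV6 WT libraries. It was 1.497-fold lower with ETV6 WT (log2 fold change -0.58, SE 0.08, adjusted p = 7.93e-06). Psma4 and Psma1 of the catalytic core's outer rings fell from 149 ± 5.63 to 102 ± 5.39 CPM (log2 -0.55) and from 187 ± 9.25 to 132 ± 2.83 CPM (log2 -0.50). Psmd14, which removes ubiquitin from substrates, fell from 137 ± 5.99 to 99.9 ± 1.36 CPM (log2 -0.46). Chaperones of the cytosol and mitochondria held 28 lower and 1 higher of 37 tested members (of 41; median -0.44), and the higher count was 3 without ETV6 WT 1. Hspd1, the mitochondrial chaperonin, was at 553, 536 and 511 CPM in the ZsGreen libraries and 256, 282 and 286 CPM in the ETV6 WT libraries. The control values were close to 2 times the ETV6 WT values, and Hspd1 was 1.94-fold lower with ETV6 WT (log2 fold change -0.96, SE 0.06, adjusted p = 1.3e-09). Cct6a, of the cytosolic chaperonin ring, fell from 482 ± 10.5 to 309 ± 2.47 CPM (log2 -0.64). Hspa9, the mitochondrial Hsp70, fell from 328 ± 4.17 to 211 ± 7.44 CPM (log2 -0.64). Hsp90ab1, one of the most abundant lower genes, fell from 3645 ± 137 to 2807 ± 153 CPM (log2 -0.38). The member that rose was Dnajb4, a co-chaperone, from 27.6 ± 1.72 to 64.5 ± 2.67 CPM (log2 1.23).

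The TCA cycle and pyruvate list held 22 lower and 1 higher of 33 tested members (of 36; median -0.35). Idh3a, a subunit of the NAD-dependent isocitrate dehydrogenase, was at 114, 116 and 126 CPM in the ZsGreen libraries and 71.5, 72.6 and 69.8 CPM in the ETV6 WT libraries. It was 1.67-fold lower with ETV6 WT (log2 fold change -0.74, SE 0.07, adjusted p = 1.49e-07). Mpc2, a subunit of the carrier that brings pyruvate into mitochondria, fell from 37.8 ± 2.39 to 20.3 ± 1.43 CPM (log2 -0.89), and its partner Mpc1 by a like amount (log2 -0.87). Idh2 fell from 116 ± 5.02 to 74.1 ± 6.75 CPM (log2 -0.64). Suclg2, a subunit of succinyl-CoA ligase, fell from 109 ± 3.903 to 77.6 ± 2.82 CPM (log2 -0.49). The member that rose was Idh1 (log2 0.55), the cytosolic NADP-dependent isocitrate dehydrogenase. Slc25a5, which exchanges ADP for ATP across the inner membrane, was at 555, 527 and 575 CPM in the ZsGreen libraries and 297, 291 and 289.8 CPM in the ETV6 WT libraries and fell by 0.91 on the log2 scale (SE 0.06).

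The co-repressors that ETV6 is known to recruit changed little as a list. Of 24 tested members (of 26), 4 were higher and 2 lower, where 37.7% of all genes and 44.9% of protein-coding genes were called, and their median was -0.01. Ncor1, Sin3a and Hdac3, known partners of ETV6, were not called, with log2 fold changes of 0.04, -0.04 and -0.06. The class II deacetylases Hdac5 and Hdac7 rose. Hdac5 was at 82.8, 82.2 and 82.2 CPM in the ZsGreen libraries and 179.5, 160.2 and 165 CPM in the ETV6 WT libraries. The ZsGreen values lay within 1 CPM of each other and far under the ETV6 WT values, and Hdac5 was 2.04-fold higher with ETV6 WT (log2 fold change 1.03, SE 0.08, adjusted p = 8.94e-09). Hdac7 rose from 34.1 ± 8.49 to 83.6 ± 10.8 CPM (log2 1.30). Hdac2, a class I deacetylase, fell from 116 ± 5.14 to 72.2 ± 0.582 CPM (log2 -0.68). Rbbp7, a histone-binding subunit of deacetylase complexes, fell from 289 ± 4.74 to 208 ± 10.2 CPM (log2 -0.48). The lower count was 4 without ETV6 WT 1.

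Polycomb and DNA methylation genes split 6 higher and 5 lower of 22 tested (of 23; median 0.01). The members that keep methylation through cell division fell. Dnmt1, the maintenance methyltransferase, was at 432, 425 and 415 CPM in the ZsGreen libraries and 303, 261 and 272 CPM in the ETV6 WT libraries. Its highest ETV6 WT library stayed well under its lowest ZsGreen library. Dnmt1 was 1.52-fold lower with ETV6 WT (log2 fold change -0.60, SE 0.07, adjusted p = 8.73e-07). Uhrf1, which guides Dnmt1 to new DNA, fell from 295 ± 11.8 to 173 ± 12.8 CPM (log2 -0.77). The de novo methyltransferase Dnmt3b fell from 48.7 ± 6.32 to 21.2 ± 1.51 CPM (log2 -1.20). Tet1 (log2 1.58) and Tet2 (log2 0.44), which oxidise methylcytosine, rose. Chromatin remodellers and coactivators held 9 higher and 5 lower of 25 members, all tested (median 0.14), none by 2-fold or more. Kdm6b, a histone demethylase, rose from 38.9 ± 0.5495 to 71.4 ± 3.96 CPM (log2 0.88). Ep300, a histone acetyltransferase, rose from 238 ± 16.8 to 375 ± 8.41 CPM (log2 0.66). The SWI/SNF subunits Smarcb1 and Smarcc1 fell from 79.96 ± 5.46 to 52.1 ± 5.58 CPM (log2 -0.62) and from 189 ± 5.13 to 149 ± 5.200 CPM (log2 -0.34). The higher count was 5 without ZsGreen 2, and the lower count 3 without ZsGreen 3 or without ETV6 WT 2.

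Of 27 tested blood lineage transcription factors (of 42), 24 were called, 14 higher and 10 lower, with a median of 0.39 (0.24 without ETV6 WT 1). Lmo2, a bridging factor of stem cell and erythroid complexes, was at 69.2, 81.7 and 82.99 CPM in the ZsGreen libraries and 21.98, 20.9 and 18.7 CPM in the ETV6 WT libraries. The control values were more than 3 times the ETV6 WT values, and Lmo2 was 3.805-fold lower with ETV6 WT (log2 fold change -1.93, SE 0.10, adjusted p = 9.81e-11). Id1 and Id2, related inhibitors of basic helix-loop-helix factors, moved in opposite directions. Id1 was at 56.5, 59.3 and 55.8 CPM in the ZsGreen libraries and 18.01, 17.6 and 18.8 CPM in the ETV6 WT libraries, and Id2 at 163, 140.4 and 142 CPM in the ZsGreen libraries and 356, 365 and 387 CPM in the ETV6 WT libraries. Neither gene's groups overlapped. Id1 was 3.15-fold lower with ETV6 WT (log2 fold change -1.66, SE 0.10, adjusted p = 9.58e-10), and Id2 was 2.48-fold higher with ETV6 WT (log2 fold change 1.31, SE 0.07, adjusted p = 1.45e-10). Klf6, a zinc finger factor, rose from 56.9 ± 5.41 to 148 ± 7.85 CPM (log2 1.38). Spi1, the myeloid ETS factor PU.1, rose from 148 ± 10.96 to 254 ± 28.8 CPM (log2 0.78). Gata2, a factor of stem, mast and megakaryocyte cells, rose from 1826 ± 47.7 to 2571 ± 371 CPM (log2 0.49). Mitf (log2 2.33) and Cebpe (log2 1.62) also rose, while Ikzf1 (log2 -1.79), Tfec (log2 -3.25) and Klf1 (log2 -0.77) fell. The summed mast cell and basophil markers, most of which is Gata2, were higher and the summed neutrophil and monocyte markers lower in ETV6 WT, as given above. Myc, which drives growth genes, was at 182, 187 and 193 CPM in the ZsGreen libraries and 129, 98.03 and 109 CPM in the ETV6 WT libraries and was 1.68-fold lower with ETV6 WT (log2 fold change -0.75, SE 0.09, adjusted p = 2.32e-06).

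Genes that restrain growth mostly rose: of 22 tested members of the quiescence and CDK inhibitor list (of 25), 13 were higher and 4 lower (median 0.30). Btg1, an anti-proliferative cofactor of mRNA deadenylation (chromosome 10, 96452868 to 96458671, plus strand, mm39), was at 76.5, 87.5 and 74.3 CPM in the ZsGreen libraries and 257, 242 and 245 CPM in the ETV6 WT libraries. Every ETV6 WT library held more than 2.5 times the level of any ZsGreen library. Btg1 was 3.12-fold higher with ETV6 WT (log2 fold change 1.64, SE 0.07, adjusted p = 8.86e-12). Txnip, which binds thioredoxin and lowers glucose uptake, was at 681, 675 and 665 CPM in the ZsGreen libraries and 1484, 1435 and 1474 CPM in the ETV6 WT libraries. It was 2.17-fold higher with ETV6 WT (log2 fold change 1.12, SE 0.06, adjusted p = 1.96e-10). Cdkn1b, the CDK inhibitor p27, rose from 57.5 ± 4.83 to 92.02 ± 5.78 CPM (log2 0.68). Rb1, the retinoblastoma protein, rose from 97.5 ± 2.21 to 147 ± 6.16 CPM (log2 0.59). Cdkn2a, the INK4a and ARF locus, rose from 1.67 ± 0.692 to 6.26 ± 1.200 CPM (log2 1.91). The lower members were E2f4 from 180.4 ± 12.3 to 114 ± 10.9 CPM (log2 -0.66), Rbl1, Sesn1 and Btg2. Immediate early and AP-1 genes, which respond within minutes to signals, held 7 higher and 0 lower of 21 tested (of 24; median 0.07). Bhlhe40, a circadian repressor, rose from 31.5 ± 2.41 to 69.1 ± 5.14 CPM (log2 1.14). Jund, an AP-1 subunit, rose from 57.6 ± 3.37 to 103 ± 9.42 CPM (log2 0.84). Mafk, a small MAF protein, rose from 50.1 ± 0.525 to 71.4 ± 6.18 CPM (log2 0.51). Junb was at 177, 185 and 188 CPM in the ZsGreen libraries and 345, 225 and 228 CPM in the ETV6 WT libraries, and ETV6 WT 1 stood above every other library. Without ETV6 WT 1 the list's median was -0.07 with 3 members lower, without ZsGreen 3 there was 1 lower member, and without both ZsGreen 1 and ETV6 WT 1 there were 4 higher and 3 lower members. Fos, Jun and Egr2 were not called.

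Cytokine receptors held 14 higher and 6 lower of 31 tested (of 48; median 0.32, and 0.20 without ETV6 WT 1). Csf2rb and Csf2rb2 are near-identical neighbouring genes for the beta chain through which IL-3 and related cytokines signal, so reads may be split between them. Csf2rb was at 336, 343 and 349 CPM in the ZsGreen libraries and 2236, 1912 and 1932 CPM in the ETV6 WT libraries. The lowest ETV6 WT value was over 5 times the highest ZsGreen value. Csf2rb was 5.91-fold higher with ETV6 WT (log2 fold change 2.56, SE 0.07, adjusted p = 6.44e-14), and Csf2rb2 was 6.21-fold higher with ETV6 WT (log2 fold change 2.64, SE 0.06, adjusted p = 4.58e-15). Il3ra, the alpha chain that binds IL-3 itself, rose by log2 0.32. Receptor subunits for interferons (Ifnar1 0.57, Ifnar2 0.52, Ifngr2 0.45), IL-4 (Il4ra 0.56), IL-10 (Il10rb 1.29) and erythropoietin (Epor 0.54) rose too. Il2rg, the common gamma chain, fell (log2 -1.74), with its partner Il21r (log2 -3.82). Il18rap, a chain of the IL-18 receptor, was at 9.77, 8.66 and 9.26 CPM in the ZsGreen libraries and 0.977, 1.08 and 0.532 CPM in the ETV6 WT libraries and fell by 3.42 on the log2 scale (SE 0.28).

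Of 25 tested cytokines and chemokines (of 48), 7 were higher and 7 lower (median -0.05). Ccl9, a myeloid chemokine, was at 38.6, 37.1 and 36.7 CPM in the ZsGreen libraries and 170.2, 189.7 and 183 CPM in the ETV6 WT libraries. All ETV6 WT libraries were more than 4 times every ZsGreen library. It was 4.83-fold higher with ETV6 WT (log2 fold change 2.27, SE 0.08, adjusted p = 2.05e-12). Tnfsf14 (LIGHT), whose promoter is shown above, rose from 30.3 ± 0.895 to 71.7 ± 5.66 CPM (log2 1.24). Ltb, a member of the same family that engages the lymphotoxin receptor, fell from 178 ± 3.45 to 44.9 ± 8.02 CPM (log2 -1.99). Fgf23, a hormone of phosphate balance that is not a usual product of blood cells, fell from 108 ± 7.81 to 0.837 ± 0.06805 CPM (log2 -7.01). Chemoattractant and lipid receptors held 8 higher and 4 lower of 23 tested (of 43; median 0.36), and 1 lower without ZsGreen 1. C3ar1, the receptor of complement fragment C3a, whose promoter is shown above, rose from 7.97 ± 2.05 to 129 ± 1.37 CPM (log2 4.02). The ATP-gated channels P2rx4 and P2rx7 are neighbours on chromosome 5. P2rx4 was at 35.5, 38.04 and 39.7 CPM in the ZsGreen libraries and 170.4, 167 and 161 CPM in the ETV6 WT libraries, and it was 4.41-fold higher with ETV6 WT (log2 fold change 2.14, SE 0.07, adjusted p = 7.1e-13). P2rx7 rose with it, from 15.4 ± 1.81 to 78.5 ± 2.77 CPM (log2 2.35). Cxcr4, which holds cells in the marrow, rose from 79.9 ± 12.5 to 157 ± 11.8 CPM (log2 0.98).

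The paired immunoglobulin-like, Fc and Siglec receptors, which set thresholds of myeloid activation, held 12 higher and 4 lower of 27 tested (of 41; median 0.16, and 0.28 without ZsGreen 1). Lilrb4a and Lilrb4b, inhibitory receptors whose sequences are close enough for reads to be split, rose from 9.23 ± 2.499 to 79.3 ± 15.1 CPM (log2 3.11) and from 16.8 ± 4.31 to 90.02 ± 3.11 CPM (log2 2.42). Cd200r3 was at 12.02, 8.06 and 11.3 CPM in the ZsGreen libraries and 40.96, 43.7 and 46.3 CPM in the ETV6 WT libraries and was 4.16-fold higher with ETV6 WT (log2 fold change 2.06, SE 0.16, adjusted p = 1.38e-08). Cd300lf, another inhibitory receptor, fell from 33.8 ± 3.75 to 5.89 ± 1.54 CPM (log2 -2.52). Pattern recognition and inflammasome genes held 12 higher and 9 lower of 34 tested (of 40; median 0.13). Ddx58, the RNA sensor RIG-I, rose from 50.1 ± 5.06 to 104 ± 11.6 CPM (log2 1.06). The pore-forming Gsdmd rose from 84.05 ± 9.38 to 136 ± 5.398 CPM (log2 0.70). Irak3, an inhibitor of Toll-like receptor signals, rose from 204 ± 19.02 to 303 ± 19.7 CPM (log2 0.57). The sensor Nlrp1b fell from 13.9 ± 2.13 to 3.06 ± 0.986 CPM (log2 -2.19), and with it Cd14 (log2 -1.70), Casp4 (log2 -1.22) and Tlr2 (log2 -1.01). Cd14 is one of the neutrophil and monocyte markers, whose summed level was lower in every ETV6 WT library than in any ZsGreen library.

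Integrins and their partners held 14 higher and 8 lower of 36 tested (of 47; median 0.06). Itgal, the alpha chain of LFA-1, was at 66.05, 57.5 and 63.3 CPM in the ZsGreen libraries and 9.22, 7.18 and 5.85 CPM in the ETV6 WT libraries. It was 8.42-fold lower with ETV6 WT (log2 fold change -3.07, SE 0.15, adjusted p = 6.92e-11), while Itgb2, its beta chain, rose by log2 0.44. Itgb4, a chain of the laminin receptor, fell from 126 ± 2.400 to 8.64 ± 2.33 CPM (log2 -3.86). Itgb7 (log2 2.20) and Itga4 (log2 0.57), which pair with each other, both rose. Ptk2b (PYK2), a kinase that integrins and calcium activate, was at 229, 241 and 233 CPM in the ZsGreen libraries and 631, 583 and 600.2 CPM in the ETV6 WT libraries. It was 2.58-fold higher with ETV6 WT (log2 fold change 1.37, SE 0.06, adjusted p = 7.15e-12). A rise was called too for Parvb, an integrin-linked kinase partner, from 5.57 ± 2.07 to 109 ± 16.3 CPM (log2 4.29). Lcp1 (L-plastin), which bundles actin in white blood cells, was at 957, 954 and 931 CPM in the ZsGreen libraries and 344, 323 and 323 CPM in the ETV6 WT libraries. The control values were nearly 3 times the ETV6 WT values, and Lcp1 was 2.87-fold lower with ETV6 WT (log2 fold change -1.52, SE 0.07, adjusted p = 2.17e-11). Coro1a (log2 -0.84), Rac2 (log2 -0.59) and Was (log2 -0.66), which regulate actin in blood cells, fell as well. Myh9, the heavy chain of non-muscle myosin II, rose from 1602 ± 62.1 to 3229 ± 311 CPM (log2 1.01). Lmna, the nuclear lamin, rose from 54.7 ± 3.94 to 206 ± 44.9 CPM (log2 1.91). Dock10, a guanine nucleotide exchange factor, rose from 242 ± 7.07 to 535 ± 44.4 CPM (log2 1.14). Coro1c, an actin-binding coronin whose promoter is shown above, rose from 169 ± 9.28 to 337 ± 13.5 CPM (log2 0.99).

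Signalling feedback genes and phosphatases held 18 higher and 6 lower of 43 tested (of 44; median 0.22). The RAS adaptors Dok2 and Dok3, which dampen RAS signals, moved apart. Dok2 was at 122, 123 and 118 CPM in the ZsGreen libraries and 38.5, 35.2 and 34.6 CPM in the ETV6 WT libraries, and Dok3 at 79.3, 88.8 and 79.3 CPM in the ZsGreen libraries and 240.3, 196 and 195 CPM in the ETV6 WT libraries. The libraries of the groups did not overlap for either gene. Dok2 was 3.35-fold lower with ETV6 WT (log2 fold change -1.74, SE 0.08, adjusted p = 3.44e-11), and Dok3 was 2.55-fold higher with ETV6 WT (log2 fold change 1.35, SE 0.09, adjusted p = 1.39e-09). Ptpn22, a phosphatase of lymphocyte signalling, rose from 13.6 ± 3.61 to 44.5 ± 2.81 CPM (log2 1.72). Dusp10, a phosphatase of stress kinases, rose from 5.28 ± 1.36 to 19.4 ± 2.296 CPM (log2 1.88). Cish (log2 1.47) and Socs3 (log2 1.23), feedback inhibitors of cytokine receptors, rose. The PI3K, AKT and TOR list held 8 higher and 7 lower of 35 tested (of 37; median 0.09, and -0.01 without ZsGreen 1). Its catalytic subunits of blood cells fell. Pik3cg, the p110 gamma subunit, was at 291, 264 and 257 CPM in the ZsGreen libraries and 93.9, 86.01 and 92.00 CPM in the ETV6 WT libraries. The lowest ZsGreen library was more than 2.5 times the highest ETV6 WT library. Pik3cg was 2.99-fold lower with ETV6 WT (log2 fold change -1.58, SE 0.07, adjusted p = 1.23e-11). Pik3cd, the p110 delta subunit, fell from 78.6 ± 4.81 to 45.1 ± 2.29 CPM (log2 -0.80), and Pik3r6 (log2 -0.82), an adaptor of p110 gamma, fell too. Inpp4b, a phosphatase of PI3K products, fell from 46.5 ± 1.71 to 15.9 ± 3.01 CPM (log2 -1.55). Gab2, a docking protein for PI3K, rose from 54.5 ± 5.97 to 96.3 ± 4.25 CPM (log2 0.82). Pik3ca, Mtor, Rptor and Rheb were not called, and Mtor had a log2 fold change of -0.05.

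Of 18 tested V-ATPase subunits (of 20), the pump that acidifies lysosomes, 13 rose and 0 fell (median 0.41). The rises were modest. Atp6v0b, whose promoter is shown above, was at 115, 137 and 132 CPM in the ZsGreen libraries and 239, 233 and 207 CPM in the ETV6 WT libraries. Every ETV6 WT library lay above every ZsGreen library, and the gene was 1.77-fold higher with ETV6 WT (log2 fold change 0.83, SE 0.08, adjusted p = 4.99e-07). Atp6ap2, an accessory subunit, rose from 86.6 ± 3.37 to 137 ± 4.25 CPM (log2 0.67). Atp6v1b2 rose from 127 ± 2.87 to 191 ± 9.13 CPM (log2 0.60). Atp6v0d1 rose from 138 ± 4.88 to 206 ± 9.22 CPM (log2 0.58). Autophagy genes held 22 higher and 2 lower of 46 tested (of 48; median 0.27), and 1 lower without ETV6 WT 1 or ETV6 WT 2. Sqstm1 (p62), a receptor that carries ubiquitinated cargo into autophagosomes, was at 242, 236 and 205 CPM in the ZsGreen libraries and 1015, 943 and 893 CPM in the ETV6 WT libraries. Its ETV6 WT values were about 4 times its ZsGreen values. Sqstm1 was 4.17-fold higher with ETV6 WT (log2 fold change 2.06, SE 0.08, adjusted p = 3.34e-12). Fnip2, a partner of folliculin in nutrient signalling, was 3.52-fold higher with ETV6 WT (log2 fold change 1.82, SE 0.07, adjusted p = 6.45e-12). The cargo receptors Nbr1 and Calcoco1 rose from 103 ± 8.002 to 176 ± 3.16 CPM (log2 0.78) and from 61.03 ± 2.32 to 110.3 ± 7.83 CPM (log2 0.85), and of the membrane-coupled proteins Gabarap (log2 0.72) and Map1lc3b (log2 0.69) rose. The initiating kinases Ulk1 and Ulk2 and Atg5 were not called.

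Sphingolipid and glycolipid genes held 21 higher and 5 lower of 36 tested (of 44; median 0.30). The hydrolases that take glycosphingolipids apart in lysosomes rose: Hexa from 133 ± 3.43 to 224 ± 23.9 CPM (log2 0.75), and with it Gla (log2 1.69), Neu1 (log2 1.19), their activator precursor Psap (log2 0.93) and the ceramidase Asah1 (log2 0.69). Sgpl1, the lyase that destroys sphingosine 1-phosphate, was at 46.6, 53.03 and 53.3 CPM in the ZsGreen libraries and 141, 143 and 128 CPM in the ETV6 WT libraries. It was 2.696-fold higher with ETV6 WT (log2 fold change 1.43, SE 0.09, adjusted p = 9.85e-10). Sgms1, which makes sphingomyelin, rose from 111 ± 9.47 to 255 ± 6.66 CPM (log2 1.20). Spns2, which exports sphingosine 1-phosphate, was at 1238, 1272 and 1239.7 CPM in the ZsGreen libraries and 546, 406 and 403 CPM in the ETV6 WT libraries and was 2.77-fold lower with ETV6 WT (log2 fold change -1.47, SE 0.10, adjusted p = 3.81e-09). The lyase rose and the exporter fell in the same libraries.

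Fatty acid oxidation and lipid handling held 14 higher and 2 lower of 35 tested (of 48; median 0.16), and 4 lower without ZsGreen 2. Plin2, the coat protein of lipid droplets (chromosome 4, 86566623 to 86588297, minus strand, mm39), was at 57.5, 56.5 and 50.2 CPM in the ZsGreen libraries and 237, 205 and 212 CPM in the ETV6 WT libraries. Its ETV6 WT values were over 3 times every control value. Plin2 was 3.98-fold higher with ETV6 WT (log2 fold change 1.99, SE 0.08, adjusted p = 3.05e-12). Plin3, another droplet coat protein, rose from 47.97 ± 3.03 to 140.2 ± 17.8 CPM (log2 1.55). Nceh1, a cholesterol ester hydrolase whose promoter is shown above, rose from 24.6 ± 3.701 to 76.04 ± 1.36 CPM (log2 1.63). Abca1, which exports cholesterol, rose from 24.2 ± 5.17 to 86.7 ± 4.02 CPM (log2 1.84). Soat1 (log2 1.70), which makes cholesterol esters, Abcg1 (log2 1.43) and Npc1 (log2 1.03) rose, as did Cpt1a (log2 0.87), the gate of mitochondrial oxidation. Acadm, Acadl, Acadvl, Hadha, Hadhb and Cpt2, enzymes of mitochondrial fatty acid oxidation, were not called. Eicosanoid enzymes held 5 higher and 5 lower of 21 tested (of 32; median -0.11, and -0.01 without ZsGreen 1), and 3 higher without ETV6 WT 2. Alox5, the 5-lipoxygenase, fell from 46.3 ± 4.52 to 2.91 ± 0.546 CPM (log2 -3.998). Pla2g4a, which releases arachidonic acid, fell from 179 ± 15.9 to 132 ± 2.68 CPM (log2 -0.44). Ptges3 fell from 173 ± 13.6 to 103 ± 11.6 CPM (log2 -0.75). Ptgr1, which inactivates leukotriene B4 and prostaglandins, rose from 15.7 ± 3.17 to 38.6 ± 0.761 CPM (log2 1.29).

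Glutathione and redox genes held 15 higher and 5 lower of 40 tested (of 42; median 0.21), and 8 lower without ZsGreen 3. Gpx4, which reduces lipid peroxides, was at 182, 153 and 152 CPM in the ZsGreen libraries and 585, 537 and 513 CPM in the ETV6 WT libraries. Every ETV6 WT library was more than 2.5 times the highest control. Gpx4 was 3.35-fold higher with ETV6 WT (log2 fold change 1.75, SE 0.08, adjusted p = 2.5e-11). Slc7a11, the cystine importer (chromosome 3, 49846975 to 50398063, minus strand, mm39), was at 44.2, 55.1 and 54.9 CPM in the ZsGreen libraries and 152, 165 and 161 CPM in the ETV6 WT libraries and was 3.11-fold higher with ETV6 WT (log2 fold change 1.64, SE 0.09, adjusted p = 4.63e-10). Catalase, Cat, rose from 113 ± 5.25 to 228 ± 8.64 CPM (log2 1.01). Hmox1, which opens heme, rose from 33.1 ± 6.104 to 123 ± 4.02 CPM (log2 1.89). The mitochondrial members Sod2 (log2 -0.61) and Prdx3 (log2 -0.49) fell, and so did Prdx1 (log2 -0.72). Nqo1, Gclc and Gclm, which share a regulator with Slc7a11 and Hmox1, were not called, and the regulator itself, Nfe2l2, rose by log2 0.16.

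Iron and heme genes held 14 higher and 10 lower of 37 tested (of 40; median 0.01, and 0.17 without ZsGreen 2). The ferritin light chain rose and the receptor that imports transferrin iron fell. Tfrc, the transferrin receptor, was at 320.4, 337 and 332 CPM in the ZsGreen libraries and 179, 186 and 186 CPM in the ETV6 WT libraries. The groups were well apart, and Tfrc was 1.800-fold lower with ETV6 WT (log2 fold change -0.85, SE 0.06, adjusted p = 5.9e-09). Ftl1, the ferritin light chain, was at 1098, 1121 and 1037 CPM in the ZsGreen libraries and 2282, 2371 and 2571 CPM in the ETV6 WT libraries. It was 2.22-fold higher with ETV6 WT (log2 fold change 1.15, SE 0.06, adjusted p = 8.26e-11), while the heavy chain Fth1 was among the steady genes above; ferritin chains have processed copies, so some reads may be placed elsewhere. Ncoa4, which delivers ferritin to autophagosomes, rose from 278 ± 11.7 to 688 ± 29.01 CPM (log2 1.31). Slc25a37, which carries iron into mitochondria, rose from 62.99 ± 2.95 to 139 ± 6.66 CPM (log2 1.14). Slc11a1, a lysosomal metal exporter, rose from 0.611 ± 0.725 to 5.65 ± 0.424 CPM (log2 3.15). Its relative Slc11a2 fell (log2 -0.99). Amino acid transporters split 7 higher and 7 lower of 22 tested (of 28; median -0.03). Beside Slc7a11, the taurine carrier Slc6a6 rose from 104 ± 8.13 to 213.9 ± 1.49 CPM (log2 1.04). The lysosomal Slc38a7 rose from 22.5 ± 4.91 to 38.5 ± 4.903 CPM (log2 0.77). Slc1a4, a carrier of neutral amino acids, fell from 29.1 ± 1.29 to 16.5 ± 3.23 CPM (log2 -0.82).

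In several families one gene fell while a close relative rose or held. These pairs were picked after their values were seen. Because a level can be compared between genes only per length, the ratio of the deposited FPKM values was taken within each library. The ratio of Id2 to Id1 was 1.37, 1.13 and 1.21 in the ZsGreen libraries and 9.41, 9.87 and 9.800 in the ETV6 WT libraries. The groups were far apart, and the mean ratio was 7.83 times as high with ETV6 WT. Hdac5 to Hdac2 stood at 0.368, 0.376 and 0.345 in the ZsGreen libraries and 1.28, 1.13 and 1.16 in the ETV6 WT libraries. The lesser transcript of the control libraries became the greater one in ETV6 WT. The same exchange of rank held for the CTP synthases, Ctps2 to Ctps, at 0.406, 0.472 and 0.399 in the ZsGreen libraries and 1.26, 1.39 and 1.202 in the ETV6 WT libraries.

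In 3 further pairs the ratio moved without passing 1. Ezh1 to Ezh2, the alternative catalytic subunits of Polycomb complex 2, stood at 0.355, 0.338 and 0.377 in the ZsGreen libraries and 0.791, 0.7795 and 0.638 in the ETV6 WT libraries. Tk2 to Tk1, the mitochondrial and the S-phase thymidine kinase, stood at 0.197, 0.194 and 0.154 in the ZsGreen libraries and 0.421, 0.501 and 0.405 in the ETV6 WT libraries. Rrm2b to Rrm1, subunits of ribonucleotide reductase, stood at 0.04996, 0.0537 and 0.0433 in the ZsGreen libraries and 0.0864, 0.129 and 0.128 in the ETV6 WT libraries. In each of these the 3 ETV6 WT ratios exceeded all ZsGreen ratios. Pik3ca to Pik3cg rose 3.12 times through the fall of Pik3cg, since Pik3ca was not called, and Ftl1 to Fth1 rose 2.21 times through Ftl1. The translation helicases Eif4a2 to Eif4a1 and the retinoblastoma relatives Rbl2 to Rbl1 rose 1.94 and 1.58 times. With 3 libraries a side an exact permutation test of a ratio could not give a p under 0.1.

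**Figure D4:**
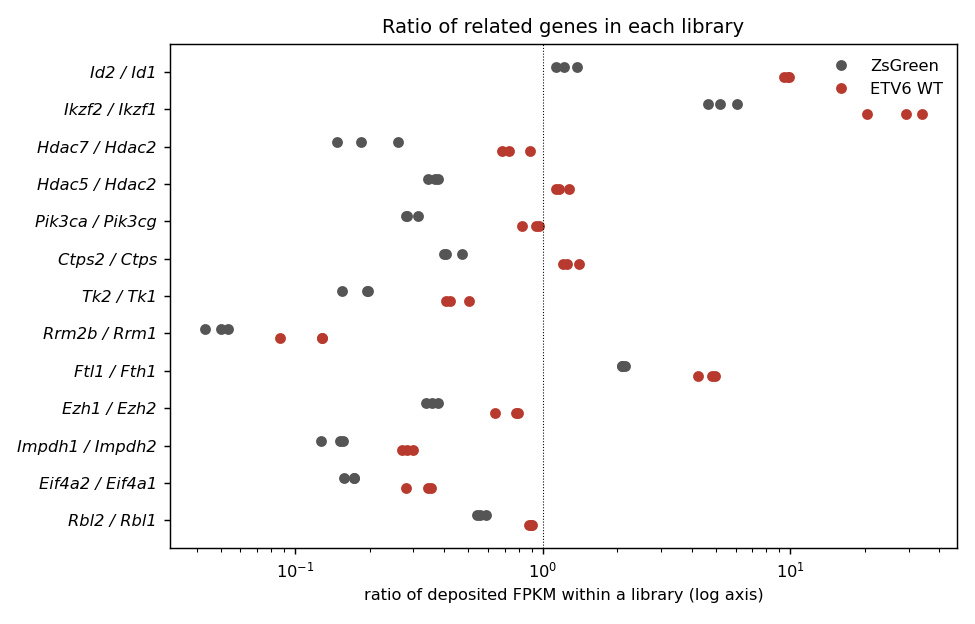
Ratio of the deposited FPKM of the second gene to the first within each library (log axis) for 13 pairs of related genes picked after their values were seen; grey points are the 3 ZsGreen libraries and red points the 3 ETV6 WT libraries, and the dotted line marks equal levels. In every pair all ETV6 WT ratios lie above all ZsGreen ratios.

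Several of the most abundant called genes changed by less than 1.5-fold. Tpt1, a growth-related protein whose mRNA has a pyrimidine tract at its start, was at 2392, 2290.5 and 2227 CPM in the ZsGreen libraries and 2859.8, 2978 and 2869 CPM in the ETV6 WT libraries. It was 1.26-fold higher with ETV6 WT (log2 fold change 0.33, SE 0.06, adjusted p = 0.000148). Pkm, a pyruvate kinase gene counted without regard to its splice forms, rose from 1443 ± 38.5 to 1855 ± 151 CPM (log2 0.36). Rps4x fell from 4239.9 ± 127 to 3646 ± 18.7 CPM (log2 -0.22). Rpl4 fell from 4038 ± 221 to 3528 ± 51.6 CPM (log2 -0.19), with every ETV6 WT library under every control. Rplp0, which fell by 0.16 on the log2 scale (adjusted p = 0.0389), was not called without ZsGreen 1, ZsGreen 2, ETV6 WT 2 or ETV6 WT 3. Rack1, a ribosomal scaffold, fell by 0.21 (adjusted p = 0.0134) and was not called without ETV6 WT 2.

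The 6 genes with rises of 1.5 to 2-fold and the smallest adjusted p came from different functions. Man2a2, which trims glycans in the Golgi, was at 173, 173 and 184 CPM in the ZsGreen libraries and 360.05, 343 and 342 CPM in the ETV6 WT libraries. It was 1.97-fold higher with ETV6 WT (log2 fold change 0.98, SE 0.06, adjusted p = 9.69e-10). Sipa1l1, which turns off RAP proteins, rose from 346 ± 7.71 to 626 ± 13.7 CPM (log2 0.85). Iqgap1, a scaffold of the cortex, rose from 495 ± 18.5 to 915 ± 40.6 CPM (log2 0.89). Atp8a1, a lipid flippase, rose from 93.1 ± 2.15 to 181 ± 12.9 CPM (log2 0.96). Plac8, a cysteine-rich protein of blood cells, rose from 414 ± 13.5 to 826 ± 29.3 CPM (log2 0.997), and the sixth was Coro1c. On the lower side stood Slc25a5, Nolc1, Hspd1, Nop56, Tfrc and Kif11, the motor that separates spindle poles, which fell from 275 ± 12.7 to 155 ± 2.41 CPM (log2 -0.83).

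Switches were sought only among called protein-coding genes with a symbol that is not a gene-model name and no overlap between the groups' libraries. With a mean under 0.5 CPM in one group and at least 2 in the other, 27 were switched on and 25 off. Noncoding genes and pseudogenes were not counted. Hba-x, an embryonic alpha-like globin, had 0 reads in the ZsGreen libraries and 155, 111 and 97 in the ETV6 WT libraries. Against a limit of 3 reads over the 3 control libraries it was at least 115-fold higher. Ngef, a guanine nucleotide exchange factor, had 0 reads in ZsGreen and 116, 116 and 92 in ETV6 WT, at least 103-fold higher. Hbb-bs, an adult beta globin, had 0, 2 and 13 reads and 89, 127 and 217 reads, a ratio of 27.5 (95% interval 16.5 to 49.6). Kash5, a protein of meiotic nuclear envelopes, had 0, 5 and 0 reads and 119, 112 and 130 reads. Mcpt4, a mast cell protease, had all of its 14 control reads in ZsGreen 2 and 352 reads in ETV6 WT. Wnt10b had 22 reads and 332 reads, a ratio of 14.4 (9.34 to 23.3). Of the genes switched off, Stfa2l1 had 118, 108 and 108 reads in ZsGreen and 0 in ETV6 WT, at least 117-fold lower. Shank3, Cstdc5, Csta2, Stfa2 and S100a9 kept 3 to 17 reads over the 3 ETV6 WT libraries against 324 to 927 over the control libraries. Stefins are a family of near-identical copies, so their reads may be split. These intervals and limits cover counting error only.

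Neighbouring genes were seen to move together at 4 places where at least 4 of 5 adjacent tested protein-coding genes were called with a change of at least 2-fold in the same direction (mm39). On chromosome 3, 96128435 to 96469199, the histone genes H2bc21, H3c15 and H4c14 and their neighbour Txnip rose. RNA was selected with poly-T beads, so the histone counts mainly cover transcripts that carry a poly(A) tail and do not measure total histone mRNA. On chromosome 7, 143161396 to 143338237, the decoy receptors Tnfrsf26, Tnfrsf22 and Tnfrsf23 and the receptor Mrgpre rose. On chromosome 10, 127001094 to 127099217, B4galnt1, which makes gangliosides, Slc26a10, Dtx3 and Kif5a rose. On chromosome 16, 35864131 to 36275754, Fam162a and 9 stefin genes fell, 10 of the 11 tested genes there. Tnfrsf26 was at 7.17, 4.197 and 6.19 CPM in the ZsGreen libraries and 26.3, 25.2 and 24.8 CPM in the ETV6 WT libraries. It was 4.32-fold higher with ETV6 WT (log2 fold change 2.11, SE 0.16, adjusted p = 1.53e-08).

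The ETV6 P214L libraries, which carry the substituted ETV6, give a second group of the same cells and handling to compare with. Against them 4319 genes (29.2%) were called in ETV6 WT. This contrast shares the ETV6 WT libraries with the main one, so the levels are set side by side with the direct test of ETV6 WT over P214L. For Btg1 the means were 79.4 CPM in ZsGreen, 114 in P214L and 248 in ETV6 WT, with a direct log2 difference of ETV6 WT over P214L of 1.12 (adjusted p = 1.37e-09). For Pik3cg they were 271, 309 and 90.6 CPM, a direct difference of -1.77 (adjusted p = 4.45e-12). For Plin2 they were 54.7, 73.4 and 218 CPM, a direct difference of 1.57 (adjusted p = 4.43e-11). In these 3 genes P214L lay nearer to the vector than to wild-type ETV6. P214L was itself called higher than ZsGreen for Btg1 (log2 0.53, adjusted p = 0.000167) and Plin2 (log2 0.42, adjusted p = 0.00267). It was not called against ZsGreen for Pik3cg (log2 0.19, adjusted p = 0.124). P214L therefore cannot be read as the same as the vector.

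Some genes did not keep that order. Of 178 named genes called against ZsGreen, 167 were called the same way against P214L and 11 were not. Over all tested genes 29.2% were called against P214L in either direction. Most named genes were picked for a small adjusted p against ZsGreen, and both contrasts use the same ETV6 WT libraries. The count of 167 therefore carries no weight of its own. Slc7a11 was at 181 ± 22.6 CPM in P214L and 159.6 ± 6.51 in ETV6 WT, against 51.4 in ZsGreen, and the direct difference was -0.18 (adjusted p = 0.152). Pla2g4a was at 134 and 132 CPM, against 179 in ZsGreen, with a direct difference of -0.02 (adjusted p = 0.868). In both genes the P214L mean lay nearer to the ETV6 WT mean than to the ZsGreen mean. Tnfrsf26 (19.6 CPM in P214L, direct difference 0.38, adjusted p = 0.0673), Atp6ap2 (126, 0.13, 0.165), Smarcb1 (58.3, -0.16, 0.235) and Slc1a4 (20.6, -0.32, 0.142) were also not called against P214L. Plac8 and Gda were high in P214L too, at 729 and 130.3 CPM, but still differed from ETV6 WT (adjusted p = 0.0445 and 0.000483). Fth1, steady against ZsGreen, was at 1707 ± 56.1 CPM in P214L and the direct difference was -0.35 (adjusted p = 9.16e-05). Etv6 itself was at 103 CPM in P214L, 109 in ETV6 WT and 99.1 in I209S P214L, and the direct difference of ETV6 WT over P214L was 0.08 (adjusted p = 0.605). A missed threshold does not show that these levels are alike.

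**Figure D5:**
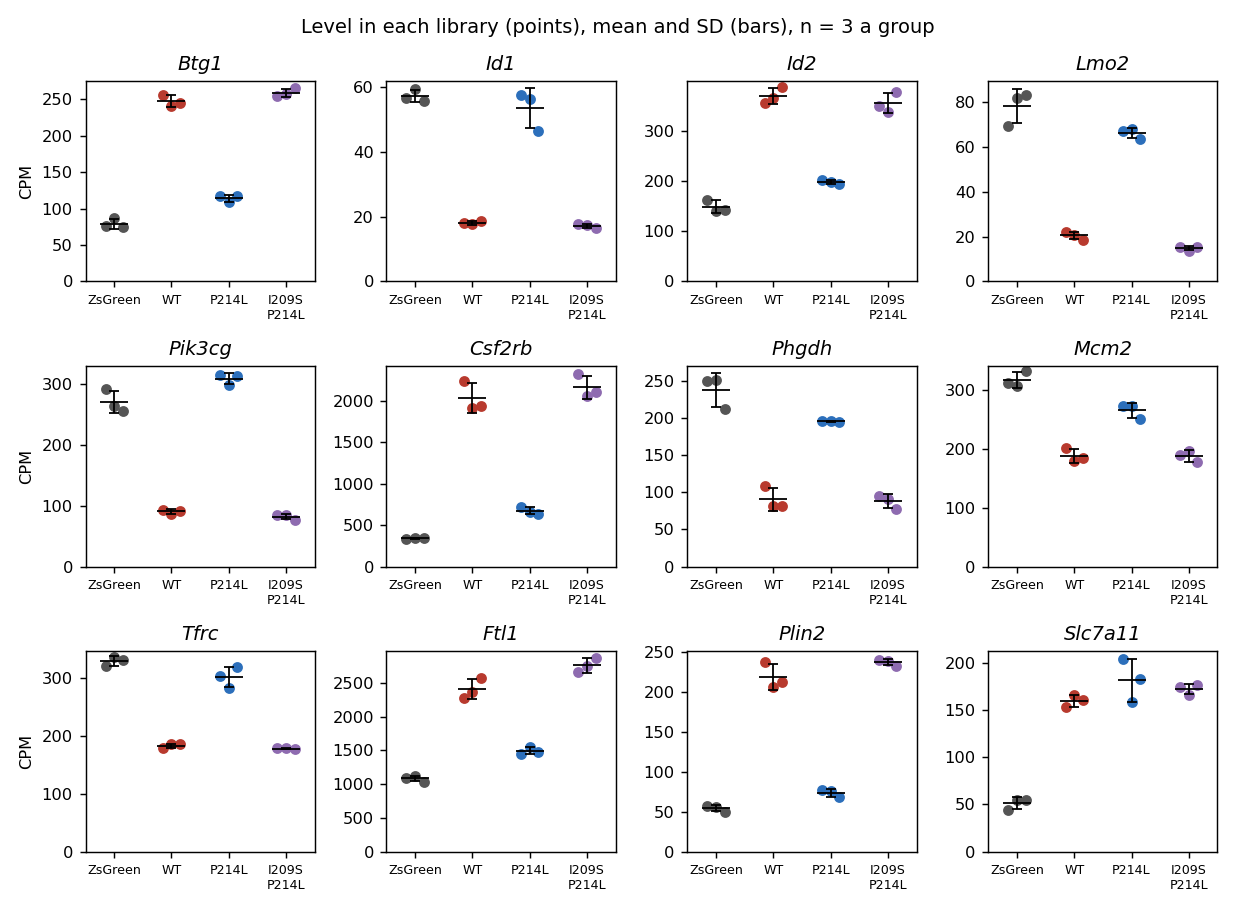
CPM of 12 named genes in each of the 12 libraries (points) with the mean and SD of each group of 3 (bars); each axis starts at 0. Btg1, Id2, Csf2rb, Ftl1, Plin2 and Slc7a11 are higher and Id1, Lmo2, Pik3cg, Phgdh, Mcm2 and Tfrc lower in ETV6 WT than in ZsGreen, and Slc7a11 is high in P214L too.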

How the data were processed

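RNA was selected with poly-T beads and sequenced from 12 libraries, per the labels' protocols. The authors deposited raw read counts and FPKM values per gene. HISAT2 2.0.5, featureCounts 1.5.0-p3 and the mm39 build are named in the submitters' processing notes, and the annotation release is not given in the sources used here. The protocol names both directional and non-directional preparation, so reads of overlapping or antisense genes cannot be told apart, and reads of near-identical copies may be split.

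The deposited counts were normalised by TMM and filtered with filterByExpr over the 4 groups, and all 12 libraries entered one fit of edgeR 4.0.16 (R 4.3.3), which shares one estimate of the spread. The contrast was ETV6 WT minus ZsGreen, tested by quasi-likelihood with Benjamini-Hochberg adjustment and a threshold of 0.05. CPM are TMM-scaled, except that the marker sums are scaled to library totals alone. Values after ± are SDs over 3 libraries. A log2 fold change comes from the fit, and its SE and 95% interval were taken from the fit. Ratios of related genes used the deposited FPKM, in which a library's scale cancels. DESeq2 1.42.0 and limma 3.58.1 (voom) were alternatives, and edgeR, DESeq2 and voom were tested on simulated data. Other alternatives were scaling by RLE, upper quartile or library totals, filters on low counts, the 6 libraries alone, each library left out and a replicate block.

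Members, lists and pairs were chosen with earlier results of these data known, and 1 further list is not reported here. From each list up to 4 called genes with the smallest adjusted p, a mean of at least 5 CPM and no overlap were named, with Etv6, Nras, Myc, Csf2rb, Csf2rb2, Spi1 and Cdkn1b always followed. The 6 most abundant genes in each direction, the 6 with the smallest adjusted p among changes of 1.5 to 2-fold, the 6 switches at the highest level and the 8 most abundant steady genes were named too. Depth limits changes in genes under about 1.501 CPM. Fits with fewer reads per gene carry wider intervals. Promoters are those of RefSeq on GRCm38.p6, matched by symbol, and mm39 gene positions come from the authors' table.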

Additional observations from a re-analysis of the deposited data

How the results depend on the processing

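The number of genes called ran from 4843 (without ETV6 WT 2) to 5886 (DESeq2), against 5580. Leaving out each library in turn gave 4843 to 5372 genes, and 1105 to 1375 with a change of at least 2-fold. Requiring a mean of at least 5 CPM left 648 genes with a change of at least 2-fold, against 1194, because 10061 genes were tested. Asking for more than 2-fold in place of 1.5-fold with glmTreat gave 392 genes, against 1158. Scaling by library totals split the calls into 3084 higher and 2515 lower, and upper quartile factors into 2769 and 2888. With ZsGreen 1 and ETV6 WT 1 both left out, 5039 genes were called, and 81.9% of the original calls remained. With the 6 libraries alone it was 4865 genes, and 86.5% remained. The Etv6 log2 fold change was 0.32 to 0.45 over the libraries left out in turn. Of 186 named genes followed, Eef2, Rplp0 and Rack1 lost their call under some alternatives and none reversed. Libraries with the same replicate number deviated together weakly (r = 0.09, 0.03 and 0.05 over genes), although each correlated best with its own number. The numbers were not taken to pair samples in the main fit. Replicate 1 stood above its group mates on the second principal component in ZsGreen, ETV6 WT and I209S P214L, but not in P214L. Whether libraries of the same number shared handling was not tested. With a replicate block 5790 genes were called, 1212 of them by at least 2-fold, and Etv6 stayed at 0.41. A small change in weakly expressed genes was beyond this depth.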
